A study of Mus musculus with 66 samples.

Results

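Gene expression over the last day before birth was followed in wild-type (Nrf2+/+) mouse lung by setting 3 samples labelled E18.5 against 3 labelled E17.5. These were 6 of the 66 samples of a series that held 22 groups of 3, wild type and Nrf2-/- knockout at 11 ages. Each of the 6 samples was described as RNA from 1 homogenized, snap-frozen lung. The fetuses were taken by surgery from time-mated dams that were fed AIN-76A, and neither group was treated. Which litter and which sex each fetus had was not stated in the labels. All 45037 probe sets of the array that are not controls were compared, with no choice by their values. Each probe set is a group of short probes that stands for 1 transcript. The labels call the samples biological replicates. The p-values set the difference between 3 samples at each age against a spread between replicates that was pooled over all 22 groups.

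In the days before birth the mouse lung is in its saccular stage. The distal tubules widen into sacs, and the cells that line them become flat type 1 cells, across which gas is exchanged, and cuboidal type 2 cells, which make surfactant. At the same time the walls between the sacs thin, capillaries come to lie against the epithelium, cell division slows, and glucocorticoids from the fetal adrenal gland are known to speed the change. Fluid that fills the sacs before birth is later cleared with the help of sodium channels of the same epithelium.

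The E18.5 libraries were not alike. Levels are given throughout as log2(signal + 16) after quantile normalization, a scale on which 4 is the lowest possible value. Over all probe sets the 3 E17.5 libraries correlated with each other at 0.9793 to 0.9801 and E18.5 replicates 1 and 2 at 0.9787. E18.5 replicate 3 correlated with replicates 1 and 2 of its own age at only 0.9691 and 0.9685, below its 0.971 to 0.9735 with the E17.5 libraries. The mean of the 11 thymus genes measured was 5.33, 5.06 and 5.38 at E17.5, 5.60 and 6.16 in E18.5 replicates 1 and 2, and 8.69 in replicate 3. Rag1, which cuts antigen receptor genes in developing lymphocytes, was 4.17, 4.26 and 4.96 at E17.5 and 6.85, 7.56 and 11.86 at E18.5. The heart muscle list of 19 genes ran from 9.76 to 12.02 at E17.5, and was 8.32 and 8.11 in E18.5 replicates 1 and 2 and 11.77 in replicate 3. Myl2, a ventricular light chain, was 13.15 in E17.5 replicate 2, 12.85 in E18.5 replicate 3 and between 6.38 and 8.80 in the other 4. The liver list, 13 genes in all, had means of 4.95 to 5.46 in the 6 libraries, near the floor. It held Trh in place of the liver gene Trf, through a shared synonym. In E18.5 replicates 1, 2 and 3 the skeletal muscle list (13 genes) averaged 6.55, 6.21 and 8.47 and the oesophagus list (13 genes) 8.08, 6.73 and 8.24. Thymus, heart muscle, skeletal muscle and oesophagus gene levels thus differed between libraries of the same age. Their part in each result was not tested beyond fits without E18.5 replicate 3 and fits with the thymus or heart muscle list mean as a covariate. With the heart covariate 12 of the 46 list genes that passed no longer did, at adjusted p-values of 0.05 to 0.14: Aqp5, Inmt, Scd1, Cd36, Chil1, Nfkbia, Elovl1, Msln, Foxp2, Col15a1, Txnrd1 and Matn3, each in the same direction. With the thymus covariate Foxp2 alone among the 46 did not (adjusted p = 0.055).

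**Figure D1:**
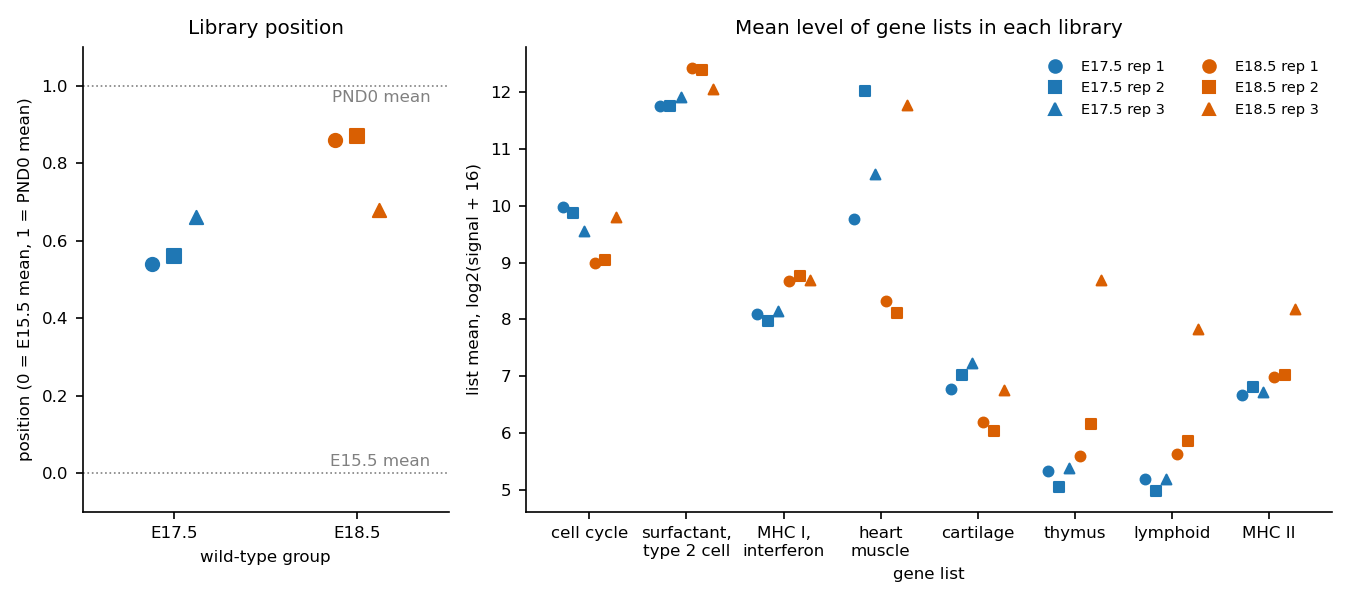
Left, the position of each wild-type library (points) on a scale from 0 at the E15.5 mean to 1 at the PND0 mean, as an average over 4763 probe sets. Right, the mean level, log2(signal + 16), of 8 gene lists in each library; E18.5 replicate 3 lies near the E17.5 libraries in position (0.68) and cell cycle level, and above the other 5 in thymus, lymphoid and MHC class II genes.

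Sex-linked genes differed between libraries of each age. Xist, expressed from the inactive X chromosome of females, ran from 7.83 to 13.96 at E17.5 and from 6.57 to 13.92 at E18.5. The Y-linked Eif2s3y ran from 5.42 to 10.91 and from 7.32 to 10.63. Both genes lay well above their lowest values in E17.5 replicate 2 (Xist 10.29, Eif2s3y 10.74) and in E18.5 replicate 3 (11.15 and 10.63). E18.5 replicate 2 had Xist at 13.92 and Eif2s3y at 7.32. Whether a library held RNA of more than 1 fetus was not tested. Nfe2l2, the gene of Nrf2, was between 11.99 and 12.25 in all 6 libraries and differed by -0.03 ± 0.34 (SE) between the ages.

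Of the 45037 probe sets, 324 were higher at E18.5 and 231 lower at an adjusted p below 0.05 (limma, Benjamini-Hochberg), that is 0.719% and 0.513%. They stood for 252 genes that rose and 181 that fell, with a change of at least 2-fold in 117 and 70 probe sets. The 3 E18.5 values lay wholly outside the E17.5 range in 545 of the 555, but the call itself selects for such separation. Over all genes, called or not, with 1 probe set each, they lay above in 10.4% and below in 11.3%. Higher calls made up 58.4% of the total, 56.3% with values as deposited and 48.5% with array medians subtracted, so the balance of rises and falls depended on the scaling. Without E18.5 replicate 3, 1008 probe sets passed, 516 higher and 492 lower, and 490 of the 555 were among them. For those 1008, replicate 3 had moved in the same direction as the others in 918 but by a median of 0.46 of their shift, and lay within the E17.5 range in 201.

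The 6 libraries were also placed on a scale whose ends were other libraries, wild-type E15.5 (0) and PND0, the day of birth (1). It used 4763 probe sets that differed at least 2-fold between these ends, at an adjusted p below 0.05 (limma). The 6 libraries entered that choice only through the shared normalization and the pooled spread. On this scale the E17.5 libraries stood at 0.54, 0.56 and 0.66 and the E18.5 libraries at 0.86, 0.87 and 0.68. The means were 0.58 ± 0.06 and 0.80 ± 0.11 (SD, n = 3 each). The groups did not overlap, although E18.5 replicate 3 was close to E17.5 replicate 3. The difference of 0.22 had a two-sided exact permutation p of 0.1, the smallest that 3 against 3 can give, and was 0.28 without E18.5 replicate 3.

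Enzymes and genes of the epithelium, the capillaries and myeloid cells were among the largest rises. Pon1, a paraoxonase that splits lactones and organophosphates, was 7.68, 7.60 and 8.80 at E17.5 and 11.38, 11.36 and 10.03 at E18.5, a difference of 2.89 ± 0.46 (SE, adjusted p = 0.00012) or 7.43-fold. Car4, a membrane carbonic anhydrase of lung capillary endothelium, was 6.38, 5.93 and 6.80 and then 9.65, 9.40 and 8.30, a rise of 2.75 ± 0.34 (adjusted p = 2.4e-06). In both genes E18.5 replicate 3 was the lowest of its group. The largest rises and falls were named only among probe sets whose groups do not overlap, so that separation is no further support. Other rises above 2 were in Acoxl, an acyl-CoA oxidase relative (2.38), C6, a complement component (2.37), Slc13a4, a sulphate transporter (2.35), S100g, a calcium-binding protein (2.35), Slfn4, a schlafen gene of myeloid cells (2.31), and Gdpd2, a phosphodiesterase (2.01). Chil3, which resembles chitinases and is made by macrophages, rose by 2.35 ± 0.56, with 6.03, 5.94 and 6.97 at E17.5 and 9.05, 9.63 and 7.30 at E18.5. Lysozyme Lyz1 rose by 2.19 on 1 probe set and by 1.42 on its brightest, but Lyz1 and Lyz2 are near-identical and their signals may be shared.

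The sequences upstream of the start are shown for Pon1, Aox3 and Car4, which rose, for Cldn6, which fell, and for the cell cycle gene Ccnb2, as examples chosen after their values were seen. Each is the 250 bases before the RefSeq start on GRCm38.p6, 5′ to 3′ on the gene's strand, with matches to the searched letters in capitals: CCAAT (the CCAAT box), TTTGAA (the CHR element of cell cycle genes) and CTCAAG (the core bound by NKX2-1), or their reverse complements.
Pon1, minus strand, chr6:5193947-5194196: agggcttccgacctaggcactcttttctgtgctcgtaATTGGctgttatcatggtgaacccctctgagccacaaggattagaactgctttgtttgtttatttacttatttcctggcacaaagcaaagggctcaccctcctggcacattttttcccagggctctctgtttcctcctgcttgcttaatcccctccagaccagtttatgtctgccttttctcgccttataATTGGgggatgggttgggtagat
Aox3, plus strand, chr1:58112886-58113135: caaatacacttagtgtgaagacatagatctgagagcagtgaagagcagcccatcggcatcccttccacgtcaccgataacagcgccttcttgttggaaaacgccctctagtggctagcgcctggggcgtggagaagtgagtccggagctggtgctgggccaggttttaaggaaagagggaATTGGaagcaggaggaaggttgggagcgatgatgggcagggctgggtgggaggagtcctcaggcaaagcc
Car4, plus strand, chr11:84957504-84957753: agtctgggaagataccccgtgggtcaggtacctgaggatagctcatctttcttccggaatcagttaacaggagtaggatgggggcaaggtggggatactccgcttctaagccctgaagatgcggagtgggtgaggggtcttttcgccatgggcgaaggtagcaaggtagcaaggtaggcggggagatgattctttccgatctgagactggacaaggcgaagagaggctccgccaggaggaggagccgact
Cldn6, plus strand, chr17:23679115-23679364: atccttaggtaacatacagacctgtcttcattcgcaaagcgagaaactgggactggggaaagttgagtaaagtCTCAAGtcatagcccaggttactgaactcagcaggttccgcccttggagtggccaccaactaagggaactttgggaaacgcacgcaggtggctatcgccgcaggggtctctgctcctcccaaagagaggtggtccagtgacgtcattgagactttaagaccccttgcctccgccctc
Ccnb2, minus strand, chr9:70421555-70421804: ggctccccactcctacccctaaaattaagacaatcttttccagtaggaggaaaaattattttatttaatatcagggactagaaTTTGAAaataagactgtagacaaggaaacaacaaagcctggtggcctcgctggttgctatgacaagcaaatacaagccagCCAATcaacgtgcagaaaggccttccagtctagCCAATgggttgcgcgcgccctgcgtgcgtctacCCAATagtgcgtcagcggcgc

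Both matches in Pon1 and the single match in Aox3 are CCAAT boxes on the opposite strand, and Car4 holds none of these letters. Cldn6 holds CTCAAG, 177 bases before the start. Ccnb2 holds CCAAT 87, 54 and 21 bases before the start and TTTGAA at 167. Over all 27025 promoters of the table, 37.5% held CCAAT, 18.3% TTTGAA, 15.2% CTCAAG and 18.2% TGTTCT, part of the site of the glucocorticoid receptor, on either strand. Over the 14452 of them that belong to measured genes the shares were 39.4%, 14.1%, 14.7% and 14.7%. The 150 genes with a promoter that rose held them in 40.7%, 18.7%, 12.0% and 14.0%, and the 116 that fell in 49.1%, 15.5%, 20.7% and 15.5%. Among list genes with a promoter in the table, CCAAT was held by 22 of 31 cell cycle genes (71.0%) and by 12 of 12 cholesterol synthesis genes. Across the lists its share ran from 16.7% (mesothelium) to 100% (cholesterol synthesis), with 85.7% in MHC class II and 75.0% in chromatin genes. These are matches of short words and were not tested.

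In 5 of the 15 largest rises, singled out after their values were seen, the level fell again by the day of birth. A probe set of Scd2, for a desaturase that makes monounsaturated fatty acids, was 7.74, 7.09 and 7.88 at E17.5 and 12.00, 11.83 and 11.46 at E18.5, the largest rise named (4.19 ± 0.70, adjusted p = 0.00025), and averaged 6.84 at PND0. Of the other 2 probe sets of Scd2 neither passed, and the brightest differed by 0.21. Gnb1, a G protein beta subunit (2.89), Vcp, an ATPase that unfolds ubiquitinated proteins (2.81), and Lman1, a cargo receptor of the endoplasmic reticulum (2.11), likewise rose on 1 probe set each, while 0 of 2, 0 of 1 and 0 of 4 others did. Those others differed by -0.02 and -0.19 in Gnb1, by -0.14 in Vcp and by -0.21 to -0.10 in Lman1. Zfp949, a zinc finger protein, rose by 2.06 and on both of its probe sets. Vcp and Lman1 had fallen from E15.5 to E17.5, by 1.67 and by 1.29. From E18.5 to PND0 the probe sets of all 5 fell, by 4.92, 2.70, 2.88, 2.39 and 1.76 (limma, adjusted p of 0.00017 or less). E18.5 replicate 3 was not set apart here: in Gnb1 it was the highest of the 3, at 7.92 beside 7.71 and 7.27.

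Crh, corticotropin-releasing hormone, was the fall with the smallest adjusted p. Its levels were 11.09, 10.34 and 9.62 at E17.5 and 6.94, 6.87 and 7.94 at E18.5, a fall of 3.10 ± 0.34 (SE, adjusted p = 9.8e-08, 8.56-fold). It had not changed detectably from E15.5 (-0.09) and fell by 1.85 from E18.5 to PND0. Midkine, Mdk, a heparin-binding growth factor of fetal tissue, was 11.74, 11.94 and 11.56 and then 10.15, 9.70 and 10.20, a fall of 1.73 ± 0.22 (adjusted p = 2.8e-06). Cldn6, a claudin of embryonic epithelium, was 8.83, 8.59 and 8.13 and then 6.83, 6.66 and 7.11, a fall of 1.65 ± 0.31 (adjusted p = 0.0013). In both genes E18.5 replicate 3 was the highest of its group, and below every E17.5 library as the choice of named genes required.

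Other large falls were in genes of varied function. Fibromodulin, Fmod, which binds collagen fibrils, fell by 1.83 ± 0.30 and on all 6 of its probe sets. Plod2, which hydroxylates lysines of collagen, fell by 1.42, and the cartilage protein Matn3 by 1.59 (adjusted p = 0.042, and 0.086 with the heart muscle list mean as a covariate). Bcl11a, a transcriptional repressor, fell by 1.67, the noncoding RNA Pantr1 by 1.81, the mitochondrial kinase Nme4 by 1.48 and the respiratory chain subunit Ndufb1 by 1.46. Lbp, which carries lipopolysaccharide, fell by 1.97 on 1 probe set and by 1.31 on its brighter one. With the thymus list mean as a covariate the first differed by -1.59 (adjusted p = 0.052). Rnase2a, a ribonuclease of the eosinophil family, fell by 2.92, and the levels at E17.5 were close together, 7.48 to 7.59. It lay near the floor at E18.5, so that its difference was -4.40 with a pseudocount of 1 and -1.67 with 64. The size likewise moved by over 1.5 times in Pantr1 (-3.35 and -0.82), Bcl11a (-2.98 and -0.78) and Matn3 (-2.32 and -0.87), with the direction kept. Of the largest rises it did so in Gnb1 (4.20 and 1.72), Slfn4 (3.69 and 1.23), Vcp (3.59 and 1.79) and Lman1 (2.82 and 1.26), and of the falls also in Ndufb1 (-1.81 and -0.94). Gelsolin, Gsn, which severs actin filaments, had the largest fall named (4.57 ± 0.94) on 1 probe set of 6: it was 12.71, 12.65 and 8.55 at E17.5 and 7.14, 6.74 and 6.34 at E18.5, and 0 of the 5 others passed. Cenpf, a kinetochore protein, and Gnas, the stimulatory G protein, fell by 1.51 and 1.49 on 1 probe set each, without the others. Without E18.5 replicate 3 Gnas differed by -1.29 (adjusted p = 0.096).

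**Figure D2:**
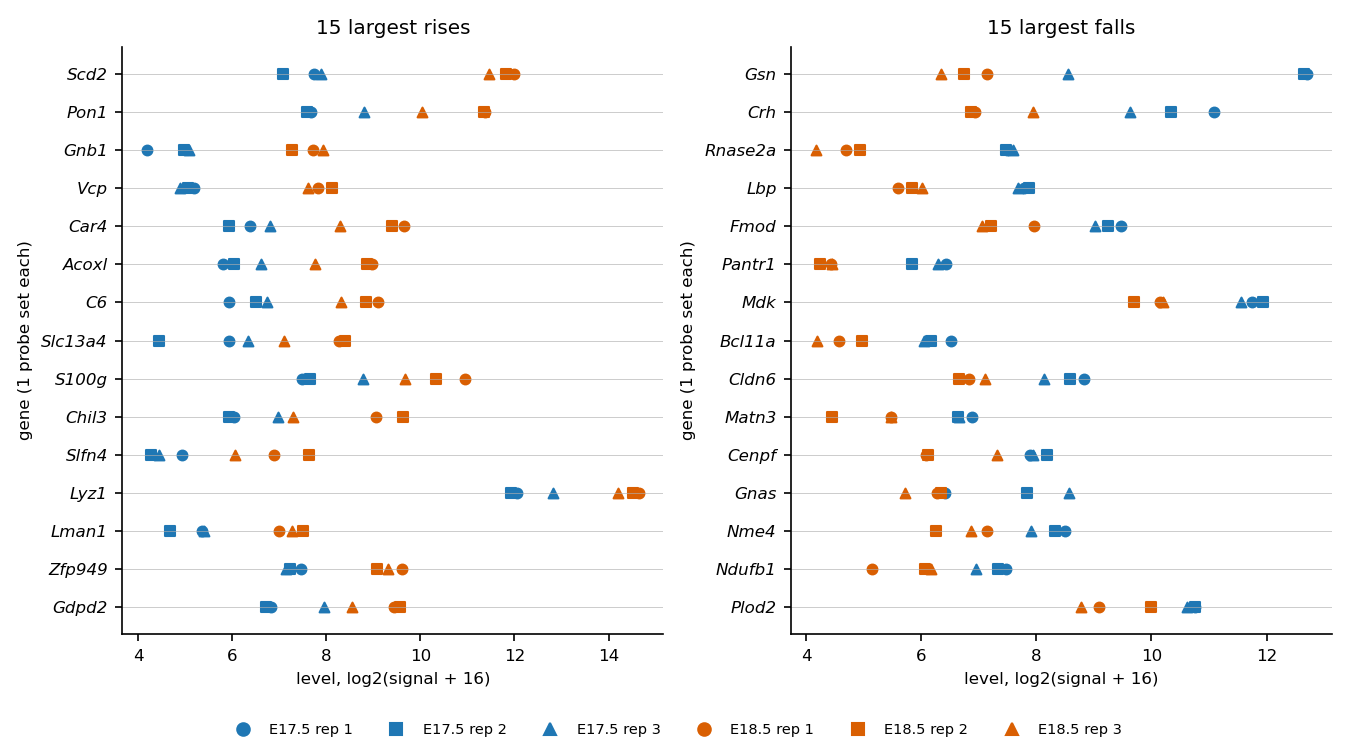
Levels, log2(signal + 16), of the 15 genes with the largest rises (left) and the largest falls (right) from E17.5 (blue) to E18.5 (orange); each symbol is 1 of the 6 libraries, and the shape gives the replicate number. In Pon1, Car4 and Chil3 E18.5 replicate 3 is the lowest of its group (10.03, 8.30 and 7.30), whereas in Zfp949 it lies between the other E18.5 libraries (9.32).

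The gene groups below were read with 1 probe set per gene, the brightest over all samples. Of 18193 genes, 194 rose (1.07%) and 140 fell (0.77%). All E18.5 values lay above those at E17.5 in 10.4% of genes and below in 11.3%, and the median difference was -0.02. Without E18.5 replicate 3, 302 genes rose and 302 fell, 1.66% each. In bulk tissue, fewer cells of a type and less RNA per cell cannot be told apart.

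Surfactant and type 2 cell genes were mostly higher but few passed. Of 23 measured, 5 rose and 0 fell, 13 had all E18.5 values above E17.5, and the median was 0.51. Those that rose were lysozymes and lipid carriers more than surfactant proteins. Lyz2 was 12.13, 12.02 and 12.68 and then 14.03, 13.96 and 13.44 (1.53 ± 0.35, adjusted p = 0.013), the chitinase-like Chil1 rose by 1.23, the fatty acid transporter Cd36 by 0.75 and the fatty acid binding protein Fabp5 by 0.62. The surfactant proteins did not pass: Sftpd differed by 1.20, Sftpa1 by 0.80 and Sftpb by 0.51, and Sftpc by -0.03. With only the wild-type arrays in the fit, Sftpd and Sftpa1 did pass (adjusted p = 0.0052 and 0.037), as they did with quantile normalization over the 6 arrays alone (0.049 and 0.046), and Sftpd also with array weights (0.0099) and the thymus covariate (0.036). Abca3, which loads lipid into lamellar bodies, differed by 0.45. Over the preceding interval, E15.5 to E17.5, 19 of the 23 had risen, and 0 changed to PND0. Sftpa1 had gained 4.06 in that earlier interval and Sftpd 4.89.

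Type 1 cell genes gave 2 rises in 18 and a median of 0.45. Rtkn2, used as a marker of type 1 cells, was 7.75, 7.76 and 8.64 and then 10.08, 10.37 and 9.63 (1.98 ± 0.27, adjusted p = 1.2e-05, 3.94-fold). The water channel Aqp5 was 9.38, 9.58 and 10.10 and then 11.37, 11.36 and 10.81 (1.49 ± 0.39, adjusted p = 0.038). In both, the groups did not overlap and E18.5 replicate 3 was lowest. Ager, Hopx and Pdpn, which also mark type 1 cells, differed by 0.48, -0.03 and 0.70 and did not pass, and Igfbp2 differed by -1.42 (adjusted p = 0.29). From E15.5 to E17.5, 16 of the 18 had risen.

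Of the 17 genes of fluid transport, 2 rose, and both were water channels. Aqp1, of capillary endothelium, rose by 0.99 ± 0.23 (adjusted p = 0.015) and Aqp5, above, by 1.49. The subunits of the epithelial sodium channel, Scnn1a, Scnn1b and Scnn1g, differed by 0.13, 0.22 and 0.69 and did not pass, and they rose by 0.95, 1.47 and 1.03 from E18.5 to PND0. Cldn6 was the 1 gene of 12 of the tight junction list to pass.

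Airway genes gave 1 call. Aox3, an aldehyde oxidase, was 7.68, 6.70 and 7.76 and then 9.63, 9.37 and 8.99 (1.95 ± 0.26, adjusted p = 7e-06), the 1 rise among 14 club cell genes. Scgb1a1, the main club cell secretion, was 12.81, 12.98 and 13.57 and then 14.61, 14.55 and 14.29, without overlap, but did not pass (1.36 ± 0.50, adjusted p = 0.21). Of 16 ciliated cell genes 0 passed (median -0.12), and 10 had risen from E15.5 to E17.5. Of 10 neuroendocrine genes 0 passed. Among 17 transcription factors of the lung epithelium and the distal tips, Foxp2 was the 1 to pass, at 11.88, 11.69 and 11.54 and then 11.00, 11.00 and 10.83 (a fall of 0.76 ± 0.20, adjusted p = 0.034). Its adjusted p was 0.083 without E18.5 replicate 3.

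Enzymes that handle foreign compounds rose in 2 of 19 (median 0.38): Pon1, above, and Inmt, a methyltransferase, which was 9.89, 9.97 and 10.48 and then 12.30, 12.13 and 11.10 (1.73 ± 0.47, adjusted p = 0.047). The cytochrome P450 genes Cyp4b1 and Cyp2f2 differed by 1.05 and 0.85, above E17.5 in every E18.5 library, and did not pass. Of 26 glucocorticoid-responsive genes 2 rose and 0 fell (median 0.28). Lcn2, lipocalin, which binds bacterial iron carriers, was 8.63, 8.43 and 9.22 and then 10.96, 10.62 and 10.34 (1.88 ± 0.41, adjusted p = 0.0079), and Nfkbia, the inhibitor of NF-kappa-B, rose by 0.41 ± 0.10. Fkbp5, Per1 and Tsc22d3, direct targets of the receptor, differed by 0.17, 0.14 and 0.39 and did not pass. From E15.5 to E17.5, 19 of the 26 had risen.

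Lipid genes gave few calls. Of 24 genes of fatty acid and phospholipid synthesis, 2 rose and 0 fell (median 0.23). Scd1, a stearoyl-CoA desaturase, was 10.94, 10.80 and 12.05 and then 13.16, 13.36 and 12.45 (1.73 ± 0.41, adjusted p = 0.016), also on its other probe set, and Elovl1, an elongase, rose by 0.62. Fasn and Acaca, which build the fatty acid chain, differed by 0.35 and 0.22 and did not pass. Of 16 cholesterol synthesis genes 0 passed, 13 differences were negative (median -0.26), and the lowest was Mvk, mevalonate kinase, at -0.60 (adjusted p = 0.095). The difference between the lists was not tested. Of 20 glycogen and glycolysis genes 0 passed here, while 10 fell from E18.5 to PND0.

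Endothelial genes gave 4 calls, all rises, with 4 of 28 rising, 0 falling, 15 with all E18.5 values above E17.5, and a median of 0.36. Cdh5, the cadherin of endothelial junctions, was 10.68, 10.52 and 10.91 and then 12.03, 12.15 and 11.60 (1.23 ± 0.24, adjusted p = 0.0019). Pecam1, another junction protein, was 10.35, 10.21 and 10.18 and then 11.36, 11.09 and 10.90 (0.87 ± 0.18, adjusted p = 0.0061), and Icam2 rose by 0.68 ± 0.13. Car4, above, was the fourth. The receptors Kdr and Flt1 and the enzyme Ace differed by 0.58, 0.35 and 1.04 and did not pass. Emcn and Plvap, also of endothelium, differed by 0.00 and 0.07.

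Matrix genes moved both ways. Of 33 genes of fibrils and basement membranes, 2 rose and 3 fell (median 0.02). Col4a3, a collagen chain of mature basement membrane, was 8.41, 8.25 and 8.46 and then 9.95, 10.27 and 9.03 (1.38 ± 0.29, adjusted p = 0.0061), and fibronectin, Fn1, rose by 0.52. Versican, Vcan, a proteoglycan of loose fetal matrix, was 10.97, 10.95 and 10.51 and then 9.27, 8.75 and 10.25 (a fall of 1.39 ± 0.23, adjusted p = 0.00031, and 1.80 without E18.5 replicate 3), and it rose by 1.05 to PND0. Col15a1 and Col18a1, collagens with long non-fibrillar parts, fell by 0.88 and 0.59. Col1a1, Col1a2 and Col3a1, which form the fibrils, differed by -0.03, -0.04 and 0.02. Of 17 elastic fibre genes, Fbn2, a fetal fibrillin, fell by 1.14 ± 0.23 (adjusted p = 0.003), and elastin, Eln, differed by 0.41 (adjusted p = 0.53). In that list Loxl3 stood for Loxl2 through a shared synonym.

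Mesenchymal and patterning genes gave few calls. Lgr6, a receptor for R-spondins, fell by 1.03 ± 0.21 (adjusted p = 0.0052), and Inmt, above, rose, in a list of 24 genes of lipofibroblasts and myofibroblasts. Of 32 signals of branching and patterning, Gli1, a transcription factor and target of hedgehog signalling, fell by 0.86 ± 0.22 (adjusted p = 0.031, and 0.07 without E18.5 replicate 3), and Shisa2, an inhibitor of Wnt and Fgf receptors, rose by 0.81 ± 0.17 (adjusted p = 0.0068). The hedgehog receptor Ptch1 differed by -0.18 and the ligand Shh by -0.20. Fgf10 and Bmp4, which steer budding, differed by 0.25 and 0.04. Of 14 smooth muscle genes 0 passed (median -0.47) and 3 fell without E18.5 replicate 3, of 11 genes of the mesothelium Msln rose by 0.97, and of 14 cartilage genes Matn3 fell (median -0.73). Heart muscle genes gave 0 of 19 (median -1.42), and 8 fell without E18.5 replicate 3.

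**Figure D3:**
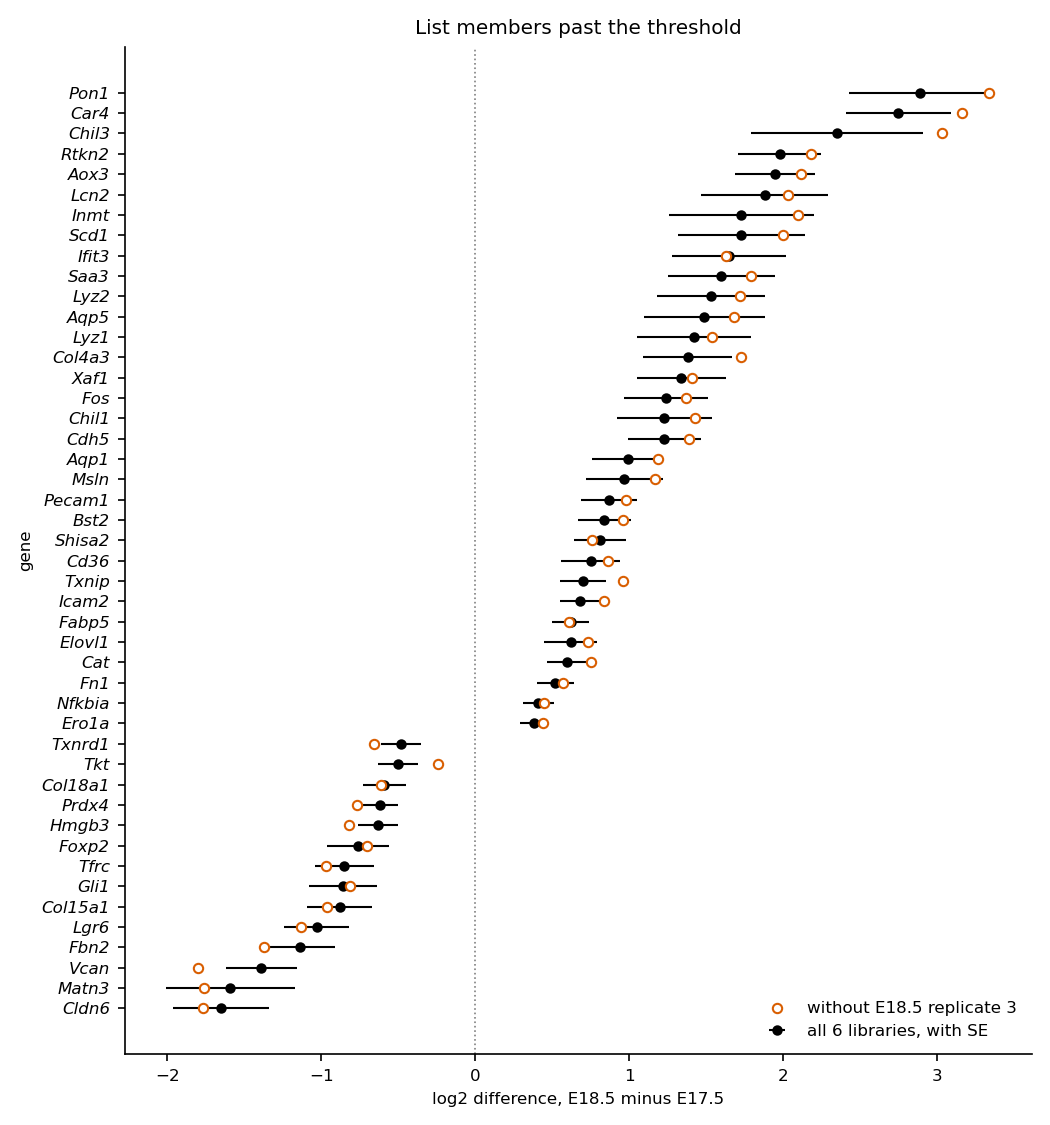
Log2 difference from E17.5 to E18.5 of the 46 list genes that passed, with its SE (black; the SE uses the spread of all 22 groups together). The open circles give the same difference without E18.5 replicate 3; 40 of the 46 lie farther from 0, and Tkt (-0.50 and -0.24) is the clearest case of the opposite.

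Among immune genes, those of the interferon response and class I antigen presentation had much the same list mean in the 3 E18.5 libraries. Of 23 measured, 3 rose and 0 fell, and in 19 all E18.5 values lay above all at E17.5, against 10.4% of all genes. The list mean was 8.09, 7.98 and 8.14 at E17.5 and 8.67, 8.77 and 8.70 at E18.5. Replicate 3 was level with the others, and the median of 0.59 was 0.56 without it. Bst2, tetherin, which holds virions at the membrane, was 8.37, 8.19 and 8.39 and then 9.09, 9.46 and 8.92 (0.84 ± 0.17, adjusted p = 0.0033). Ifit3, an interferon-induced RNA-binding protein partner, was 4.25, 5.48 and 4.66 and then 6.82, 6.04 and 6.48 (1.65 ± 0.37, adjusted p = 0.01), and Xaf1 rose by 1.34 on 1 probe set. Its other probe set was 8.94, 9.80 and 9.25 and then 9.89, 9.95 and 6.68, with E18.5 replicate 3 below every E17.5 library. The class I genes H2-K1, H2-D1 and B2m differed by 0.32, 0.62 and 0.35 and did not pass. From E15.5 to E17.5, 7 of these 23 genes had risen, and 0 changed to PND0.

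Macrophage genes gave 3 rises in 23, namely Chil3, Lyz2 and Car4, of which Lyz2 was also in the type 2 list and Car4 in the endothelial list. The receptors Csf1r, Adgre1 and Mrc1, which define macrophages, differed by 0.11, 0.00 and -0.03, and the median was 0.11. From E18.5 to PND0, 8 of the 23 rose. Of 19 neutrophil and inflammation genes 2 rose (median 0.51): Lcn2, above, and serum amyloid Saa3, which was 6.08, 6.27 and 6.45 and then 8.24, 7.88 and 7.48 (1.60 ± 0.35, adjusted p = 0.0082). The granule genes S100a9 and Ngp differed by 1.41 and 0.79 and did not pass, and Elane and Mpo by -0.38 and 0.32. Lymphoid genes (14, median 1.45), thymus genes (11, median 1.50) and MHC class II genes (10, median 0.60) gave 0 calls. Those medians fell to 0.46, 0.39 and 0.14 without E18.5 replicate 3, the library with the high Rag1. Of 14 mast cell and platelet genes 0 passed.

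Cell cycle genes were lower in 36 of 40, and 0 passed. The median was -0.61, and -0.92 without E18.5 replicate 3. The list mean was 9.98, 9.87 and 9.55 at E17.5, 9.0 and 9.04 in E18.5 replicates 1 and 2 and 9.81 in replicate 3, so the ages overlapped. Kif20a, a kinesin of cytokinesis, differed by -1.28 (adjusted p = 0.062) and was the 1 gene to pass without that library. Ccnb2, a mitotic cyclin, differed by -1.05, Bub1, a checkpoint kinase, by -0.99, and Top2a by -0.61. Cdkn1a, a cell cycle inhibitor, differed by 0.82 (adjusted p = 0.095). From E15.5 to E17.5, 29 of the 40 had fallen. Among 15 chromatin genes of dividing cells, Hmgb3, a DNA-bending protein, was 11.26, 11.18 and 10.97 and then 10.37, 10.26 and 10.87 (a fall of 0.63 ± 0.13, adjusted p = 0.0036).

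Antioxidant genes, which include Nrf2 targets, rose in 2 and fell in 3 of 40 (median 0.00). Catalase, Cat, was 12.02, 11.85 and 12.19 and then 12.78, 12.76 and 12.32 (0.60 ± 0.13, adjusted p = 0.01), and Txnip, which binds thioredoxin, rose by 0.70. Prdx4, a peroxiredoxin of the endoplasmic reticulum, was 12.37, 12.29 and 11.88 and then 11.42, 11.40 and 11.85 (a fall of 0.62 ± 0.12, adjusted p = 0.0019). Txnrd1, thioredoxin reductase, fell by 0.48 (adjusted p = 0.049), with overlapping groups. Tkt, transketolase, fell by 0.50, but by 0.24 with an adjusted p of 0.37 without E18.5 replicate 3, which alone was low (12.30 beside 13.12 and 13.05). The Nrf2 targets Nqo1, Hmox1, Gclc and Gclm differed by -0.13, -0.01, -0.14 and -0.08 and did not pass.

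The remaining groups gave 1 call or none. Ero1a, which forms disulphides in the endoplasmic reticulum and responds to low oxygen, rose by 0.38 ± 0.09 (adjusted p = 0.018) among 19 hypoxia genes, 10 of which fell from E18.5 to PND0. Fos, an immediate early transcription factor, was 8.91, 9.28 and 9.47 and then 10.47, 10.72 and 10.20 (1.24 ± 0.27, adjusted p = 0.0072), whereas Egr1, Jun and Junb differed by -0.56, 0.14 and 0.16 and did not pass, in a list of 22. The transferrin receptor Tfrc fell by 0.85 ± 0.19 (adjusted p = 0.011) among 14 red cell genes, while the globin Hba-a1 differed by -0.70 (adjusted p = 0.65). In 7 more lists 0 genes passed by their brightest probe set. They were the lists of imprinted genes (18), the Igf axis (11), the clock (18), retinoid signalling (16), the oesophagus (13), skeletal muscle (13) and liver (13). Through a shared synonym, Nckap1 stood in the imprinted list for H19 and Trh in the liver list for Trf. Neither belongs to its group, and H19 and Trf were not read. The nearest to passing were the clock activator Arntl (0.68, adjusted p = 0.055), the retinoic acid receptor Rarb (-0.80, adjusted p = 0.057) and Igf1 (-0.72, adjusted p = 0.071).

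**Figure D4:**
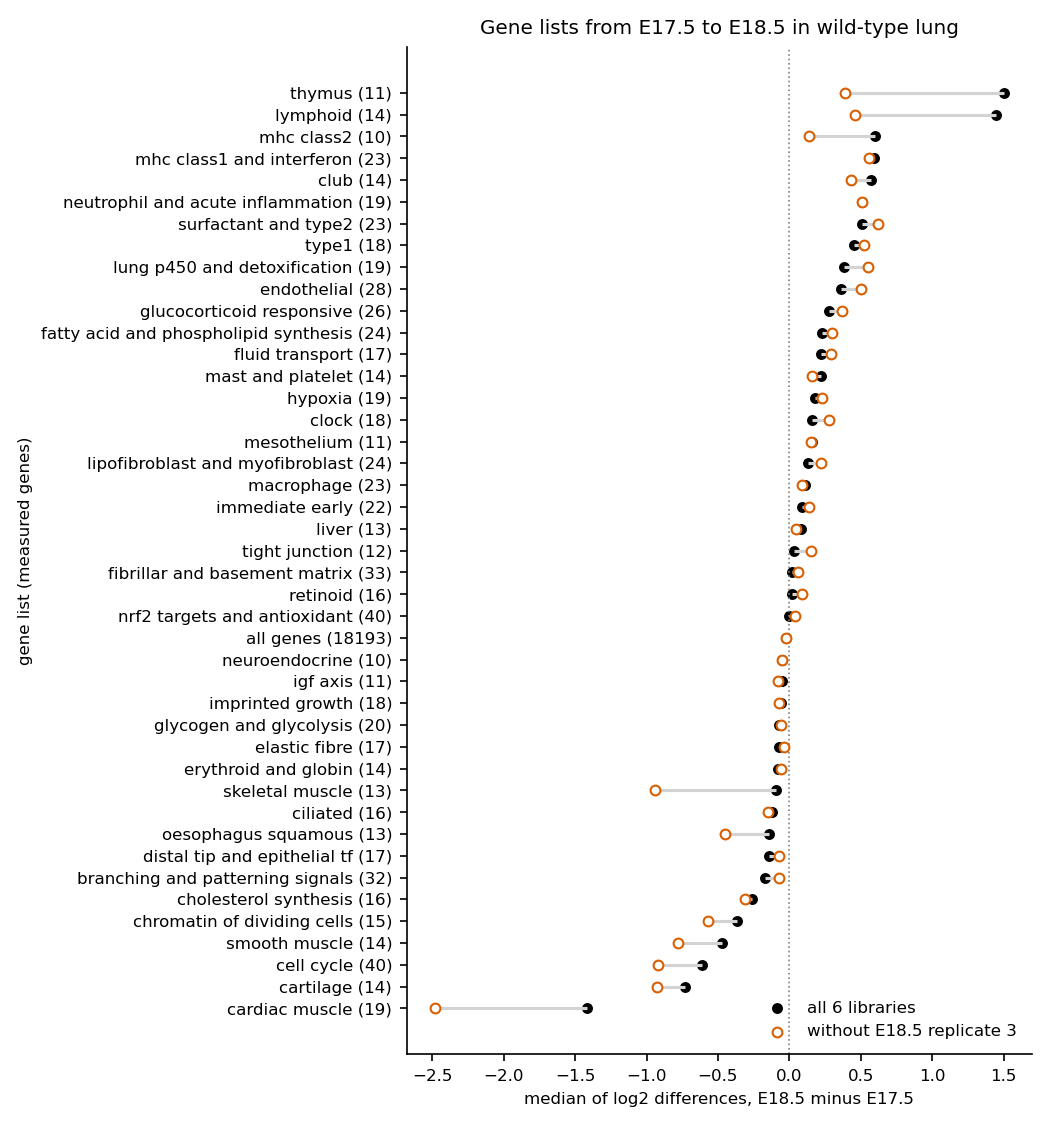
Median log2 difference from E17.5 to E18.5 of each gene list, with the number of measured genes in brackets, over all 6 libraries (black) and without E18.5 replicate 3 (open circles). The thymus, heart muscle, lymphoid and skeletal muscle lists shift most when that library is left out, whereas the MHC class I and interferon list keeps its place (0.59 and 0.56).

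The step can be set beside its neighbours, which share 3 libraries with it. From E15.5 to E17.5, 12.1% of genes rose and 12.5% fell. From E18.5 to PND0, 3.26% rose and 2.42% fell. Of the 32 list genes that rose over the last day before birth, 24 had also risen from E15.5 to E17.5. The 12.1% of all genes is not the base share of the lists. Risen in that interval were 19 of 23 surfactant and type 2 genes and 16 of 18 type 1 genes, but 1 of 16 cholesterol synthesis genes. Inmt gained 4.91 in that interval, Aqp5 4.09, Lcn2 3.28, Pon1 2.97 and Scd1 2.93. Car4 differed by 0.76 in that interval (adjusted p = 0.13) and rose by 1.39 after E18.5. Chil3 and Col4a3 also went on rising to PND0, by 2.11 and 1.15. Mdk and Cldn6 had fallen before E17.5, by 1.31 and 1.45. Crh, Fbn2, Lgr6 and Gli1 had not changed detectably in that interval (-0.09, -0.43, 0.36 and -0.31). Gli1 rose again by 0.90 to PND0.

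**Figure D5:**
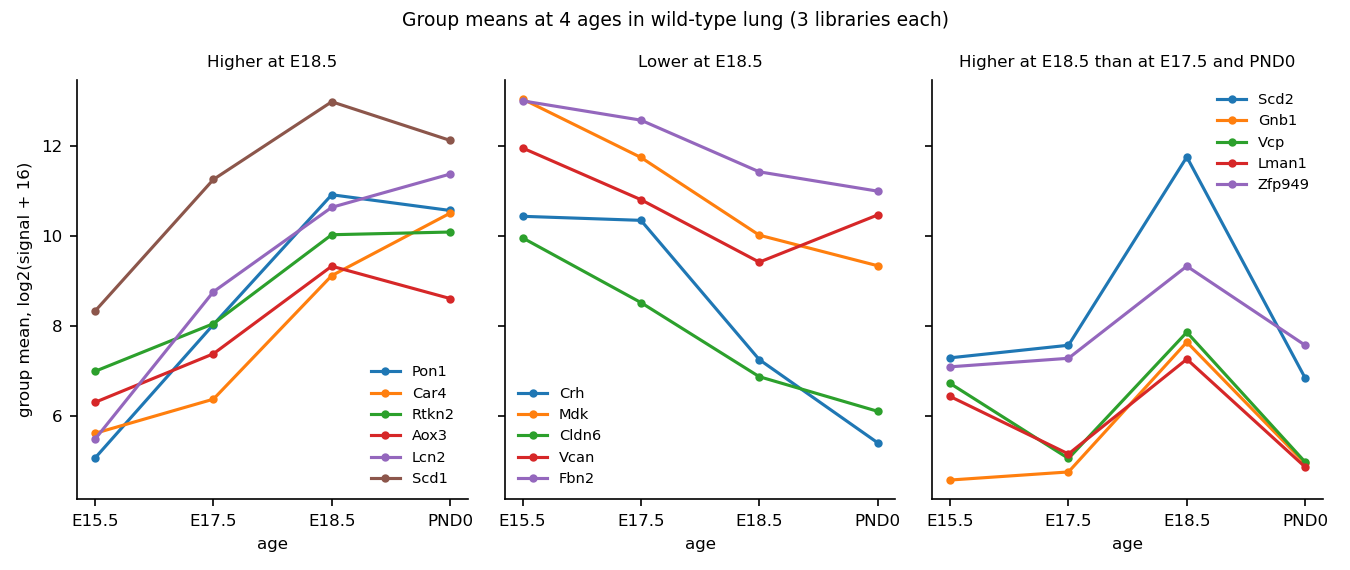
Group means of log2(signal + 16) in wild-type lung at E15.5, E17.5, E18.5 and PND0 (3 libraries each, spread not shown) for genes that rose to E18.5, for genes that fell, and for 5 probe sets that were high at E18.5 and lower on both sides. The Scd2 probe set is at 7.57, 11.76 and 6.84 at the last 3 ages, whereas Car4 ends at 10.51 and Crh at 5.40.

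Other libraries gave a check of direction. PND0 against E15.5 shares no library with the step, though the normalization and the pooled spread are common to both. In that comparison 13.0% of probe sets were higher and 14.4% lower. Of the 324 rises, 255 were also higher there (78.7%) and 7 lower, and of the 231 falls 184 were also lower (79.7%) and 9 higher. These were 4.35% and 2.85% of that comparison's own calls. Together 79.1% of the calls kept their direction between the outer ages.

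The knockout libraries gave the opposite direction under their labels. From E17.5 to E18.5 as labelled, 2.01% of probe sets were higher in the knockout and 2.76% lower. Of the 324 rises in wild type, 0 rose and 191 fell in the knockout, and of the 231 falls 1 fell and 86 rose. Pon1 fell by 3.64 there, Car4 fell by 2.56 and Rtkn2 fell by 1.52, while Crh rose by 2.70 and Mdk by 1.52. The difference between the genotypes passed for 501 of the 555 (limma, interaction term), for example in Pon1 (6.54, adjusted p = 3.8e-10) and Crh (-5.80, adjusted p = 5e-12). It passed for 3506 of all 45037 probe sets. The 555 were chosen by the wild-type difference, which is part of that term, so a high share among them was partly built in. On the scale from E15.5 to PND0 the knockout libraries labelled E17.5 stood at 0.70, 0.78 and 0.77 and those labelled E18.5 at 0.35, 0.51 and 0.49, so no knockout library labelled E18.5 stood above one labelled E17.5. Of the 5 probe sets that fell again by PND0 in wild type, none passed in the knockout: Scd2 differed by -1.55, Gnb1 by -0.31, Vcp by -0.46, Lman1 by -0.11 and Zfp949 by -0.31. These values rest on the age labels of the knockout libraries: if the E17.5 and E18.5 labels were exchanged, every knockout difference would change sign, and this was not tested. The knockout libraries entered the wild-type values above through the pooled spread, the shared quantile normalization and the choice of the brightest probe set of each gene.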

How the data were processed

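The authors deposited a linear signal intensity for every probe set of each Affymetrix mouse array. The submitters' processing notes name GCOS, and the sources used here state neither its version nor its algorithm and scaling target. In the 6 arrays the trimmed mean (2%) is 500 and the median intensity lies between 109.6 and 127.4. Precision is limited by the number of arrays, 3 per group.

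All 66 arrays were quantile normalized and analysed as log2(value + 16), without a filter on low values, so fold changes understate the change of dim probe sets. limma 3.58.1 (R 4.3.3) fitted the 22 group means, with an intensity trend in eBayes, leaving 44 residual degrees of freedom and a spread shared by all groups. P-values of 45037 probe sets (64 controls left out) were adjusted together by Benjamini-Hochberg, with a threshold of 0.05. SEs come from that shared spread and can understate it where libraries of a group were unlike. The platform annotation gave 1 gene symbol for 34945 probe sets, several for 932 and none for 9160, and only the first were named. On simulated data for this contrast with 45037 probe sets, changes of 0.5, 1 and 2 were recovered in 28%, 72.5% and 98%, and 4.6% of calls were false. The simulated noise was independent and normal, with the same spread of a probe set in every group, and no change was planted in dim probe sets. It held no library unlike its group, as E18.5 replicate 3 was, so these rates need not hold for the real contrast.

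Named genes are the 15 largest rises and falls past the threshold with groups that do not overlap, 1 probe set per gene, leaving out predicted loci, sex-linked genes and immunoglobulin segments, and the 744 genes of 42 lists. The comparison, the members and the lists were chosen with earlier results of these data known. Replicate numbers were not used to pair the samples. Deviations of equal numbers correlated at 0.0028, -0.1006 and -0.0843, which cannot exclude that equal numbers share a litter or a batch. Promoters are from RefSeq (GRCm38.p6). Alternatives were other scalings, pseudocounts of 1 and 64, a filter on dim probe sets, other fits, covariates and leaving out each replicate. Figures were drawn with matplotlib 3.10.9 (Python 3.11.15).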

Additional observations from a re-analysis of the deposited data

Results flagged for a closer look

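The step from E17.5 to E18.5 differed between the genotypes in 501 of the 555 probe sets called in wild type, by the interaction term of the limma fit, and over all 45037 probe sets in 3506 (8391 at an unadjusted p below 0.05). That term contains the wild-type difference by which the 555 were chosen, so a high share among them was partly built in. Car4 rose by 2.75 in wild type and fell by 2.56 in the knockout libraries as labelled, a difference of 5.31 (adjusted p = 5.9e-11). Cldn6 fell by 1.65 in wild type and rose by 1.37 in the knockout. Lbp was among the exceptions, with a fall of 1.97 in wild type, -1.54 in the knockout and an adjusted p of 0.86 for the difference. The comparison of genotypes was added after seeing the data, and whether the age labels of the knockout groups were exchanged was not tested. If they were, each knockout difference would change sign and the 501 would not hold as given.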

How the results depend on the processing

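The count of 555 (324 higher, 231 lower) moved with most choices, and no named gene or list gene that passed changed direction under any alternative run. It was 325 (183, 142) with values as deposited, 330 (160, 170) with array medians subtracted, 160 (92, 68) with quantile normalization over the 6 arrays alone, 139 (81, 58) with only the 6 arrays in the fit, 344 (217, 127) with only the wild-type arrays, 3065 (1425, 1640) with array weights and 809 (459, 350) with a filter on dim probe sets. Leaving out 1 replicate gave 166 to 1008 in all, 93 to 516 higher and 62 to 492 lower: 177 without E17.5 replicate 1, 168 without E17.5 replicate 2, 171 without E18.5 replicate 1, 166 without E18.5 replicate 2 and 1008 without E18.5 replicate 3. The replicate block within the 6 arrays left 1 call (1 higher, 0 lower). It was fitted to the 6 arrays alone, where 139 passed without a block. The block also takes up degrees of freedom of those few arrays, so its losses are not a measure of pairing. Whether equal numbers share a litter or a batch was not stated in the labels. As covariates added after seeing the data, the thymus list mean gave 2466 (1189, 1277) and the heart muscle list mean 215 higher and 178 lower. The share of calls that kept their direction from E15.5 to PND0, 79.1%, was 71.4% with values as deposited, 71.8% with array medians subtracted, 73.5% with the heart covariate and 74.1 to 82.0% with 1 replicate left out. Of the 30 named genes, 13 no longer passed with the 6 arrays alone or normalized alone, 29 with the block, and 1 to 8 with 1 replicate left out; of the 46 list genes that passed, 46 were lost with the block, 29 with the 6 arrays alone, 28 with these normalized alone, 3 to 29 with 1 replicate left out, 15 with array medians subtracted and 12 each with values as deposited and the heart covariate. Calls were also gained: of 698 list genes that had not passed, 119 did with array weights, 96 with the thymus covariate, 31 without E18.5 replicate 3 and 8 with only the wild-type arrays. The difference in position kept its direction under the 5 alternatives run for it.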
